A study of Mus musculus with 9 samples.

Results

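The 9 genes described here act in mitochondrial fusion and fission (Opa1, Mfn1, Mfn2, Dnm1l and Fis1), in optic atrophy (Opa3, a gene of the mitochondrial membranes) and in mitophagy as it has been linked to glaucoma (Pink1, Optn and Tbk1). They were taken by symbol from the 23997 gene symbols listed for each library, and all 9 were listed in every library. RNA sequencing was performed on retinal ganglion cells (RGCs), the neurons whose axons form the optic nerve, from C57BL/6J mice labelled as 8 weeks old. Control eyes had received saline in the anterior chamber, and Mild IOP and Moderate IOP eyes had received microbeads and were divided by the size of the intraocular pressure (IOP) elevation measured over 2 weeks. All 3 groups came from female and male mice and shared an immunopanning protocol that ended with selection for the surface protein Thy1.2, with actinomycin D present to block new transcription during isolation. The RNA of each group was pooled, with fewer retinas in the Moderate IOP pool, and each of the 3 pools was split into 3 technical replicates. A difference between groups was therefore a difference between pools, and the p-values below measure the technical spread between libraries of a pool, with no measure of the spread between mice.

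Mitochondria join and divide continually. The mitofusins MFN1 and MFN2 fuse the outer membranes and OPA1 fuses the inner membranes, whereas DRP1, the product of Dnm1l, is a dynamin-like GTPase that constricts and divides the organelle, and FIS1 sits in the outer membrane and takes part in fission. When a mitochondrion loses its membrane potential, the kinase PINK1 is stabilized on its surface, where it phosphorylates ubiquitin, and receptors such as optineurin (Optn), phosphorylated by the kinase TBK1, link the ubiquitin-coated organelle to the autophagosome. RGC axons run unmyelinated through the retina and are rich in mitochondria. Mutations in OPA1 and OPA3 cause optic atrophy, and OPTN and TBK1 are genes of normal-tension glaucoma.

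Of these genes, Pink1 and Fis1 were the ones called different between groups, both in Moderate IOP against Mild IOP, and the 250 bases before their annotated starts are shown for that reason. The sequences are from RefSeq (GRCm38.p6), written 5′ to 3′ on the strand of the gene, with Fis1 at chr5:136953025-136953274 on the plus strand and Pink1 at chr4:138326297-138326546 on the minus strand. Capitals mark matches to the motifs searched.
Fis1: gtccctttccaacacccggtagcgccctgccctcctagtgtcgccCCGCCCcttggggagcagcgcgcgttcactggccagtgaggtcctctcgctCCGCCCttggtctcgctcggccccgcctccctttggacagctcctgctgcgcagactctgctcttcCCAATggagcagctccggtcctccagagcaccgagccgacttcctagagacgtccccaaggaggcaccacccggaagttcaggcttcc
Pink1: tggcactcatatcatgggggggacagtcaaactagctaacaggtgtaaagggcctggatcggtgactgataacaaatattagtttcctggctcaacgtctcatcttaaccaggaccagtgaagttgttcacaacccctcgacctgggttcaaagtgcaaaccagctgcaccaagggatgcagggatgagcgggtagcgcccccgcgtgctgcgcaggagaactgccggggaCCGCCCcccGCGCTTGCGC
The Fis1 stretch held the GC box GGGCGG, read here as CCGCCC, at 205 to 200 and again at 154 to 149 bases before the start, and the CCAAT box at 88 to 84 bases before it, with 66.8% G and C. In Pink1 the NRF1 core motif (GCGC, any 2 bases, GCGC) lay directly before the start, at bases 10 to 1, next to a GC box at bases 19 to 14, and 57.2% of the bases were G or C. Fis1 has 2 annotated starts, and the one at the start of its deposited locus was used.

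Promoters of the same length were searched on both strands for these motifs and for the E-box CACGTG, the TATA box TATAAA, the ERR element AAGGTCA and the FOXO element GTAAACA. Promoters were matched for all 9 genes. Each held a GC box, which was found in 32.74% of 32851 mouse promoters, a set not limited to genes expressed in these libraries. No enrichment of a motif was tested. The NRF1 core was found in Opa1, Pink1 and Tbk1, against 4.977% of all promoters, and the CCAAT box in Opa1, Mfn1 and Fis1, against 33.85%. No E-box, TATA box, ERR element or FOXO element was found in the 9 stretches, motifs present in 6.021%, 12.37%, 4.079% and 3.166% of all promoters. A match is a run of letters and not a measured binding site.

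Expression was given by the authors as FPKM, fragments normalized to transcript length and to the mapped fragments of a library, and all levels below are FPKM divided by a scaling factor for each library (scaled FPKM). Read totals were not used here. Relative depth, estimated from the confidence intervals of genes between 1 and 10 FPKM, ranged from 0.77 to 1.39 across libraries, and 14182 to 14914 genes per library were above 0. The fragments behind a value, derived the same way, numbered 1946 to 5014 per library for Pink1 and 744 to 1503 for Fis1, but 124 to 245 for Mfn1. Values were compared as log2(scaled FPKM + 1), a scale that understates changes of low genes, by subtracting group means (Log2 fold-change), and were tested with limma over 13043 genes with the false discovery rate (FDR) of Benjamini and Hochberg. Differences with an FDR below 0.1 are called. Group values are mean ± SD (n = 3 technical replicates).

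RGC markers were present in every library, and the identity of the cells was checked with 11 of them, all with a group mean of at least 1 in every group. Their summed level was 1724 to 1856 for Control, 1283 to 1581 for Mild IOP and 2595 to 2820 for Moderate IOP. Of the 11, 7 were called higher in Moderate IOP than in Mild IOP, beside 7.03% of all genes tested. Against Control, 2 of them (Sncg and Nefl) were called higher in Moderate IOP, where 1.84% of all genes were called in either direction. In Mild IOP against Control 0 of the 11 were called, beside 0.399% of all genes. The 8 rod markers summed to 504.8 to 578 in Control against 356 to 379.7 in both IOP groups. The 8 amacrine markers summed to 576.2 to 617.4 in Moderate IOP, below the 786.8 to 826.5 of Control and the 864.2 to 919.4 of Mild IOP. Gad2 and Slc6a9 were called lower against both groups and Gad1 against Mild IOP, while the median Log2 fold-change of the 7 tested markers was 0.06 against Control and 0.12 against Mild IOP. The 6 lens markers summed to 216.2 to 282.3 in Control and to at most 2.574 in the IOP groups, where Crygs, Cryba1 and Lim2 were at 0 in every library. The 5 Müller glia markers summed to 474.7 to 583.7 and the 8 microglial markers to 25.93 to 49.58 over all libraries. Cones summed to 5.905 to 18.8, bipolar cells to 46.36 to 94.91 and horizontal cells to 15.68 to 34.9, with Vsx1 and Lhx1 at 0 in every library. Astrocyte, endothelial and mural, and pigment epithelium markers summed to at most 10.87, and Cldn5, Cdh5 and Rpe65 were at 0 throughout. In such bulk libraries, a smaller share of a cell type and less RNA per cell cannot be told apart, and the part of these marker differences in the results below was not tested.

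The 9 genes spanned a wide range of levels in Control RGCs. Fis1 was the highest at 380 ± 52.2 scaled FPKM, followed by Pink1 at 228 ± 26.7 and Mfn2 at 104 ± 42.8, and the replicates of these 3 genes did not overlap. Dnm1l at 40.1 ± 13.5, Opa3 at 34.2 ± 5.22 and Optn at 31 ± 6.02 followed, each overlapping the next. Tbk1 at 17.5 ± 1.80, Opa1 at 8.34 ± 4.18 and Mfn1 at 5.05 ± 0.874 were lower and did not overlap their neighbours. The order of the means was the same in Mild IOP and Moderate IOP, with no overlap of Dnm1l and Opa3 there, although Fis1 overlapped Pink1 in Mild IOP, and Pink1 overlapped Mfn2, Optn overlapped Tbk1 and Opa1 overlapped Mfn1 in Moderate IOP. Of the mitofusins, Mfn2 was the higher. The ratio of Mfn2 to Mfn1, computed per library, was 20.4 ± 6.82 for Control, 12.8 ± 2.71 for Mild IOP and 18.9 ± 11.8 for Moderate IOP (n = 2).

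**Figure D1:**
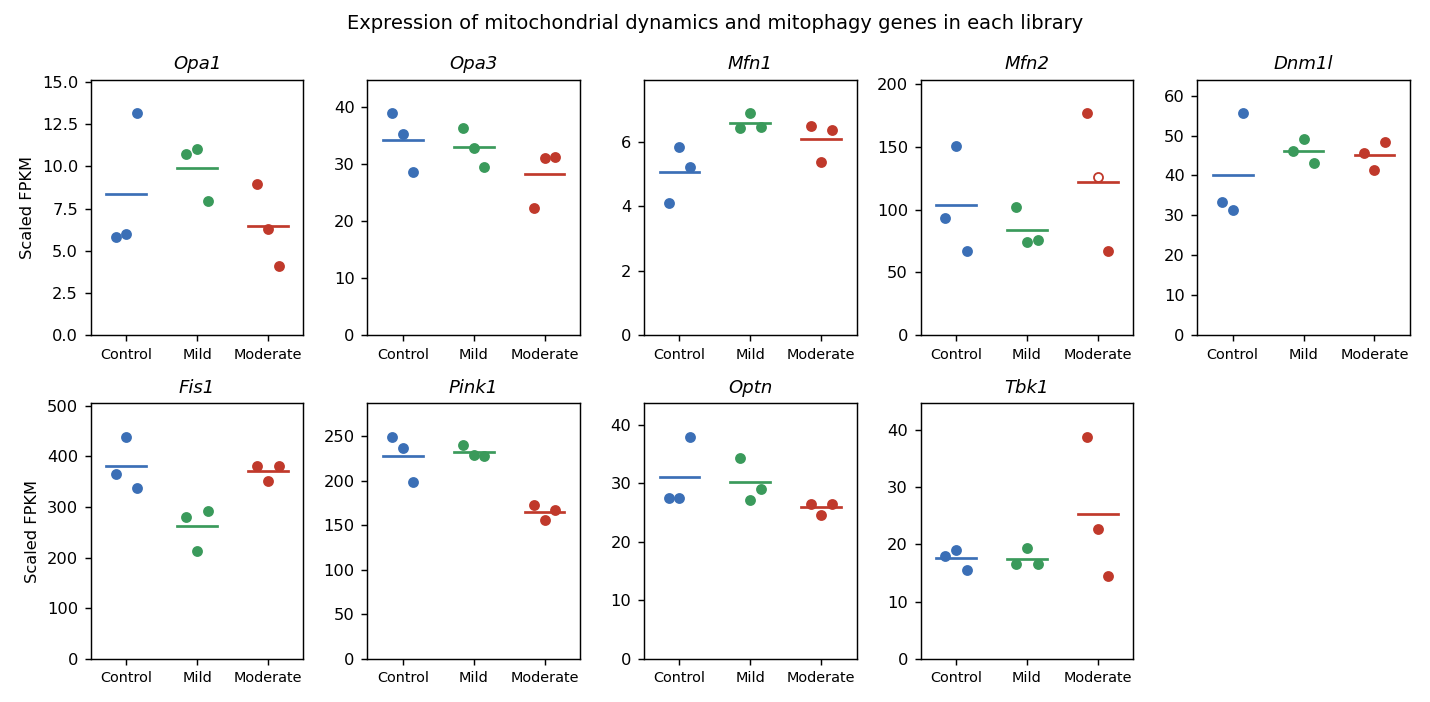
Scaled FPKM (y axis, linear, from 0) of each of the 9 genes in the 9 libraries, with 1 point per technical replicate and a line at the group mean; the open circle is the failed Mfn2 estimate, which the mean leaves out. The Moderate IOP replicates of Pink1 (155.9 to 172.5) lie below all others, and the Mild IOP replicates of Fis1 (212.5 to 290.9) lie below all others.

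Of the 8 genes tested in all 9 libraries, 0 were called in Mild IOP against Control, where 0.399% of all genes tested were called, and 0 in Moderate IOP against Control, where 1.84% were called. By limma, 1 gene in each comparison had an unadjusted p below 0.05, Fis1 and Pink1 respectively, against 10.2% and 15.3% of all genes, and both had one in Moderate IOP against Mild IOP, against 21.8%. In Moderate IOP against Mild IOP, 2 of the 8 were called, and 10.2% of all genes tested were called, 7.03% higher and 3.12% lower (917 and 407 genes, and 731 and 662 without scaling or 804 and 596 with upper-quartile scaling). Over the 8 genes, Log2 fold-changes had a median of 0.01 in Mild IOP against Control, −0.13 in Moderate IOP against Control and −0.16 in Moderate IOP against Mild IOP, beside 0.01, 0.00 and −0.02 over all genes. Their median absolute Log2 fold-change was 0.15, 0.26 and 0.32 in the same order, beside 0.20, 0.25 and 0.29. Replicates did not overlap for 2, 2 and 3 of the 8 genes, while this held for 17.1%, 19.4% and 27.5% of all genes. The comparisons share groups, so their values for 1 gene are not independent of each other.

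Pink1 (chr4:138313410-138326296 in mm10), the kinase that marks depolarized mitochondria, was downregulated in Moderate IOP against Mild IOP. Its level was 249.6, 237.1 and 198.5 scaled FPKM in the Control replicates, 240.8, 228.7 and 228.1 in Mild IOP and 172.5, 155.9 and 167.4 in Moderate IOP. All 3 Moderate IOP replicates lay below all 6 others, whereas those of Control and Mild IOP overlapped. An absence of overlap toward lower values was found for 9.48% of all genes in Moderate IOP against Control and for 13.0% in Moderate IOP against Mild IOP. The Log2 fold-change was −0.49 in Moderate IOP against Mild IOP (SE 0.11, 95% interval −0.74 to −0.24, FDR = 0.0322), a level of 0.712 times that of Mild IOP. Against Control, the Moderate IOP value was −0.46 (SE 0.11, 95% interval −0.71 to −0.21), with an FDR of 0.103 that missed the threshold. Mild IOP and Control differed by 0.03 (95% interval −0.22 to 0.28, FDR = 0.954). With the variance trend removed, the Moderate IOP against Mild IOP call was lost (FDR = 0.116), as it was without Mild IOP replicate 1 (FDR = 0.114) or Moderate IOP replicate 2 (FDR = 0.106). The Control comparison was called without scaling (FDR = 0.0801), with upper-quartile scaling (FDR = 0.0814), with genes of a mean of at least 5 (FDR = 0.0869) and without Control replicate 3 (FDR = 0.0628). That comparison was not called without the variance trend (FDR = 0.22), with the variance of the compared groups only (FDR = 0.175) or with a replicate block (FDR = 0.157). The other fits without 1 library did not call it either (FDR = 0.101 to 0.287). The fall of Pink1 stood beside RGC marker sums that were higher and amacrine marker sums that were lower in Moderate IOP. The part of either in it was not tested. A microRNA locus, Mir7019, overlaps the Pink1 locus.

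Anapc2, Mpi, Grn, Mmp24 and Ubr7 had the patterns most like that of Pink1 over the 9 libraries, among 8179 genes with a mean of at least 5 scaled FPKM. Pearson's r of the log2 values was 0.964, 0.964, 0.962, 0.962 and 0.959. Each had its lowest group mean in Moderate IOP, as in Anapc2 with 42.7, 41.6 and 25.2 scaled FPKM and in Grn, the gene of the lysosomal protein progranulin, with 45.7, 46.9 and 33.2 in Control, Mild IOP and Moderate IOP. The 9 points come from 3 pools, so this likeness mostly restates differences between pools and carries no test.

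Fis1 (chr5:136953275-136966234), the outer membrane fission protein, was upregulated in Moderate IOP against Mild IOP and had its lowest level in Mild IOP. The Control replicates had 365.3, 438.4 and 337.4 scaled FPKM, those of Mild IOP 280.3, 212.5 and 290.9, and those of Moderate IOP 381.5, 351.2 and 380. All 3 Mild IOP replicates lay below all 6 others, with the lowest value in Mild IOP replicate 2, a library in which a single gene held 20.5% of the summed FPKM, and Control and Moderate IOP overlapped. Such an absence of overlap was found for 9.13% of all genes toward lower values in Mild IOP against Control and for 14.5% toward higher values in Moderate IOP against Mild IOP. The Log2 fold-change was 0.52 in Moderate IOP against Mild IOP (SE 0.14, 95% interval 0.20 to 0.83, FDR = 0.0609), a 1.431-fold difference. In Mild IOP against Control it was −0.55 (SE 0.14, 95% interval −0.86 to −0.23), with an FDR of 0.198, and in Moderate IOP against Control it was −0.03 (95% interval −0.34 to 0.29, FDR = 0.95).

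The Fis1 difference in Moderate IOP against Mild IOP had the direction of 83.9% of tested genes with transcripts under 1000 nt. Its cause was not tested. The longest coding transcript of Fis1 has 948 nt, the shortest among the 9 genes, and over the 697 tested genes with transcripts under 1000 nt Log2 fold-changes had a median of −0.48 in Mild IOP against Control and 0.70 in Moderate IOP against Mild IOP. In that class 317 genes were called higher and 3 lower in Moderate IOP against Mild IOP. For the 4947 genes from 2000 to under 4000 nt, which include Pink1 with 2375 nt, the medians were 0.02 and −0.06. When the trend with transcript length was removed from each library, an alternative chosen after seeing these data, Fis1 was no longer called and its sign turned (Log2 fold-change −0.07, FDR = 0.767), whereas Pink1 remained called in Moderate IOP against Mild IOP (−0.51, FDR = 0.0262) and was also called against Control (−0.47, FDR = 0.0494). Fis1 in Mild IOP against Control was then −0.18 (FDR = 0.717). Its Moderate IOP against Mild IOP call was also lost without scaling (FDR = 0.105), without the filter on low values (FDR = 0.108), without the variance trend (FDR = 0.153) and with a replicate block (FDR = 0.108). It was lost without Mild IOP replicate 1 (FDR = 0.105) or 2 (0.38, FDR = 0.173) and without Moderate IOP replicate 1 (FDR = 0.14), 2 (FDR = 0.116) or 3 (FDR = 0.129).

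**Figure D2:**
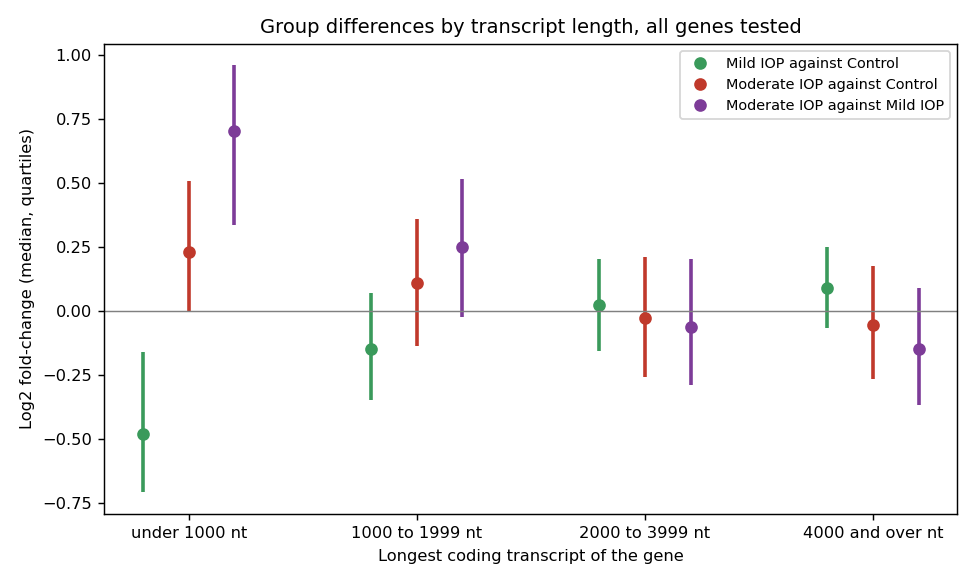
Log2 fold-change (y axis) of all tested genes in 4 classes of longest coding transcript (x axis), as medians (points) with quartiles (bars), for the 3 comparisons. Under 1000 nt, the class of Fis1, the medians are −0.48, 0.23 and 0.70, and from 2000 to under 4000 nt, the class of Pink1, they are 0.02, −0.03 and −0.06.

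Dnm1l (chr16:16312228-16359031), which encodes the fission GTPase itself, was not called in any comparison. Its level was 33.2, 31.3 and 55.6 scaled FPKM for Control, 46.1, 49.2 and 43.2 for Mild IOP and 45.7, 41.4 and 48.5 for Moderate IOP. Replicate 3 of Control was the highest of the 9 libraries and both other Control replicates were the lowest, so that the groups overlapped. Log2 fold-changes were 0.25 in Mild IOP (95% interval −0.19 to 0.68, FDR = 0.744) and 0.22 in Moderate IOP (95% interval −0.22 to 0.65, FDR = 0.648) against Control, and −0.03 between the IOP groups (95% interval −0.47 to 0.40, FDR = 0.951). Without Control replicate 3 the differences from Control became 0.50 and 0.47 and were still not called (FDR = 0.252 and 0.159). The ratio of Fis1 to Dnm1l, computed per library, was 10.4 ± 4.02 for Control, 5.71 ± 1.25 for Mild IOP and 8.22 ± 0.344 for Moderate IOP.

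Opa1 (chr16:29579334-29654602), the inner membrane fusion GTPase, had 5.84, 6.02 and 13.2 scaled FPKM for Control, 10.7, 11 and 7.95 for Mild IOP and 8.97, 6.26 and 4.08 for Moderate IOP. The groups overlapped, and Control replicate 3 was again the highest library. The Log2 fold-change was −0.59 in Moderate IOP against Mild IOP (95% interval −1.31 to 0.12, FDR = 0.324) and 0.30 and −0.30 in Mild IOP and Moderate IOP against Control (FDR = 0.831 and 0.714). Without Control replicate 3 the last 2 values became 0.64 and 0.05, and Moderate IOP against Mild IOP was −0.34 without Moderate IOP replicate 3, none of them called. Opa3 (chr7:19228389-19246817), which encodes a mitochondrial membrane protein, had 38.9, 35.2 and 28.6 scaled FPKM for Control, 36.4, 32.8 and 29.4 for Mild IOP and 22.2, 31.0 and 31.3 for Moderate IOP. Its groups overlapped, and its Log2 fold-changes were −0.05, −0.28 and −0.23 in Mild IOP against Control, Moderate IOP against Control and Moderate IOP against Mild IOP (FDR = 0.953, 0.493 and 0.501).

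The mitofusins differed in how well they were measured. Mfn1 (chr3:32529482-32579225) had 4.11, 5.83 and 5.23 scaled FPKM for Control, 6.42, 6.88 and 6.46 for Mild IOP and 6.48, 5.37 and 6.37 for Moderate IOP. The Mild IOP replicates lay above those of Control without overlap, as did those of 7.94% of all genes, but the Log2 fold-change of 0.34 (SE 0.20, 95% interval −0.10 to 0.77) was not called (FDR = 0.636). Mfn1 was also not called in Moderate IOP against Control (0.23, FDR = 0.623) or against Mild IOP (−0.10, FDR = 0.809). Mfn2 (chr4:147873586-147904909) had 93.2, 150.5 and 66.7 scaled FPKM for Control, 101.7, 74.3 and 75.4 for Mild IOP and 176.8 and 67.3 for Moderate IOP replicates 1 and 3. In Moderate IOP replicate 2 the authors' software marked the Mfn2 estimate as failed, with a listed FPKM of 126 above its own confidence bound of 5.92, so Mfn2 was left out of the main test and was fitted with that library missing. In that fit its Log2 fold-changes were −0.24 (95% interval −1.03 to 0.56), 0.16 (−0.73 to 1.05) and 0.39 (−0.50 to 1.28) in Mild IOP against Control, Moderate IOP against Control and Moderate IOP against Mild IOP. None was called (FDR = 0.889, 0.893 and 0.622).

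**Figure D3:**
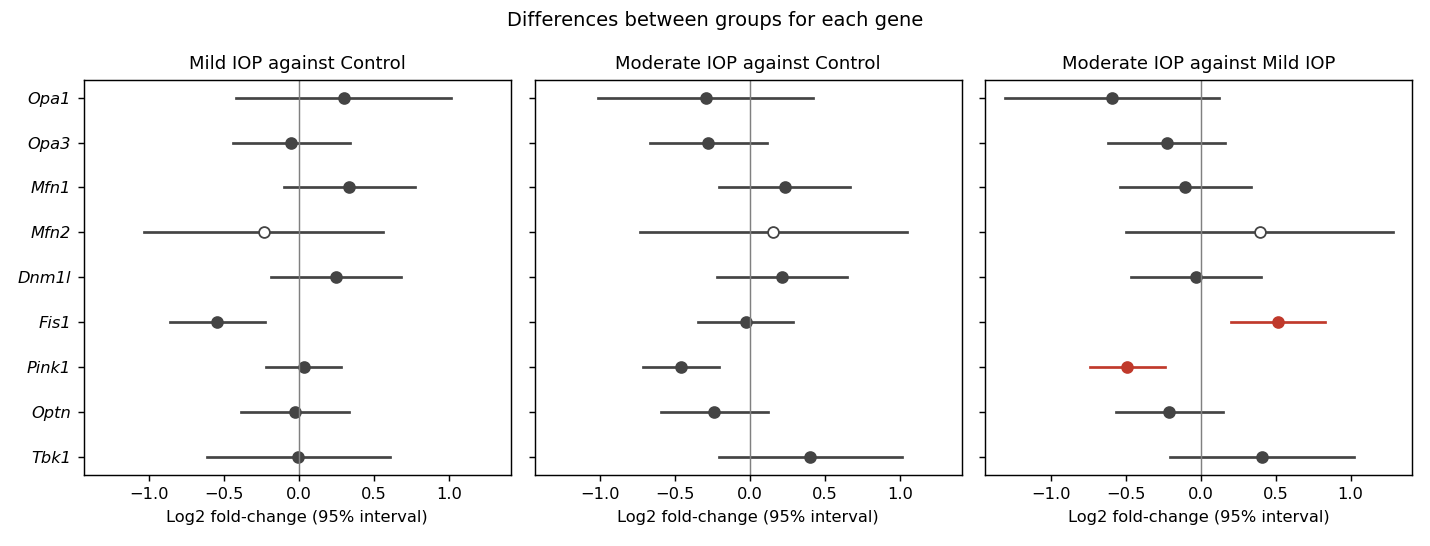
Log2 fold-changes (x axis, points) with 95% intervals (bars) of the 9 genes in the 3 comparisons, red where the FDR was below 0.1 and open for Mfn2, which was fitted without its failed library. Pink1 (−0.49) and Fis1 (0.52) in Moderate IOP against Mild IOP are the 2 red points.

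Optn (chr2:5020642-5063938), the ubiquitin-binding autophagy receptor, had its lowest and tightest levels in Moderate IOP. It had 27.6, 27.5 and 37.9 scaled FPKM for Control, 34.4, 27.2 and 29 for Mild IOP and 26.4, 24.6 and 26.5 for Moderate IOP, so that all Moderate IOP replicates lay below all others, as for 9.48% of all genes against Control and 13.0% against Mild IOP. The Log2 fold-changes of −0.24 (95% interval −0.59 to 0.12, FDR = 0.524) and −0.21 (95% interval −0.57 to 0.15, FDR = 0.499) were not called, and Mild IOP differed from Control by −0.03 (FDR = 0.975). The Moderate IOP difference from Control became −0.09 without Control replicate 3 (FDR = 0.835). That from Mild IOP became −0.11 without Mild IOP replicate 1 (FDR = 0.804). Tbk1 (chr10:121546456-121586794), the kinase that phosphorylates optineurin, had 18, 19.1 and 15.6 scaled FPKM in Control and 16.5, 19.3 and 16.6 in Mild IOP. In Moderate IOP it had 38.8, 22.7 and 14.5, holding both the highest and the lowest library. Its Log2 fold-changes were 0.00 in Mild IOP against Control (FDR = 1), 0.40 in Moderate IOP against Control (95% interval −0.21 to 1.02, FDR = 0.525) and 0.41 against Mild IOP (95% interval −0.21 to 1.02, FDR = 0.432). Both Moderate IOP differences depended on single libraries, at 0.05 and 0.06 without Moderate IOP replicate 1 and at 0.74 and 0.74 without Moderate IOP replicate 3 (FDR = 0.191 and 0.101).

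Replicates of the same pool differed more for some of the 9 genes than for others. Mfn2 had a residual SD of 0.594 on the log2 scale, beside a median of 0.179 over 744 genes within 0.5 log2 units of its level, of which 0.403% were more spread. Tbk1 (0.408) and Opa1 (0.465) were also wide for their level, with 10.97% and 15.06% of genes of like level more spread. Mfn1 (0.147) and Pink1 (0.111) were tight, with 96.3% and 82.5% of genes of like level more spread. Dnm1l (0.271), Opa3 (0.219), Fis1 (0.185) and Optn (0.182) lay nearer to the middle. Mfn2 and Tbk1 were both highest in Moderate IOP replicate 1, and their log2 values had r = 0.786 over the 8 libraries in which both were estimated, the only pair of the 9 genes above 0.75 in absolute value, as a description over libraries from shared pools.

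**Figure D4:**
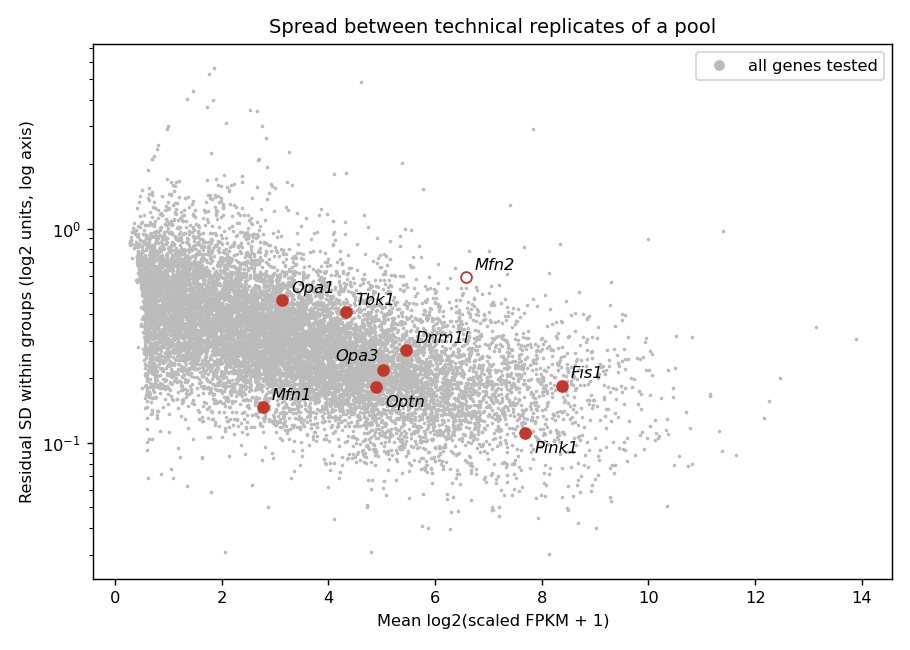
Residual SD between technical replicates (y axis, log2 units on a log axis) against the mean of log2(scaled FPKM + 1) (x axis) for all tested genes in grey and for the 9 genes in red, with Mfn2 open because its failed library was left out. Mfn2 (0.594) stands above nearly all genes of its level, and Pink1 (0.111) and Mfn1 (0.147) lie low.

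The partners of these genes were taken from 10 lists, in which 147 distinct genes were tested. In Mild IOP against Control 0 of the 147 were called, in Moderate IOP against Control 3 (2.04%, 1 higher and 2 lower), and in Moderate IOP against Mild IOP 11 (7.48%, 8 higher and 3 lower), beside 0.399%, 1.84% and 10.2% of all genes. The unadjusted limma p was below 0.05 for 15, 24 and 26 of the 147 in the same order (10.2%, 16.3% and 17.7%), beside 10.2%, 15.3% and 21.8% of all genes. The Moderate IOP against Control count was 9 (3 higher and 6 lower) with the trend with transcript length removed, 0 with a replicate block or with the variance of the compared groups only, 1 without the variance trend or without Moderate IOP replicate 2, 5 with a minimum mean of 5, and 0 without Control replicate 1, Control replicate 2 or Mild IOP replicate 1. The Moderate IOP against Mild IOP count was 13 without scaling (7 higher and 6 lower) and 13 with upper-quartile scaling (8 higher and 5 lower). It was 5 (2 higher and 3 lower) with the trend with transcript length removed, 6 without the variance trend, 7 without the filter on low values, and 4 without Mild IOP replicate 2, 6 without Mild IOP replicate 1 and 6 without Moderate IOP replicate 2.

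Among 21 tested partners of PINK1, 3 were upregulated in Moderate IOP against Mild IOP and 18 were not called, with a median Log2 fold-change of 0.04. Over all genes, 7.03% were called higher in that comparison. Tomm22, a receptor of the outer membrane import pore, had 110 ± 16.5, 92.3 ± 11.3 and 159 ± 30.1 scaled FPKM in Control, Mild IOP and Moderate IOP (Log2 fold-change between the IOP groups 0.77, FDR = 0.0232). Ube2l3, a ubiquitin-conjugating enzyme, differed by 0.47 (FDR = 0.0439), and Park7, which encodes the redox-sensitive protein DJ-1, by 0.57 (FDR = 0.0516). With the length trend removed, the values were 0.54 for Tomm22 (FDR = 0.112), 0.53 for Ube2l3 (FDR = 0.0424) and −0.02 for Park7 (FDR = 0.952), so that only Ube2l3 of the 3 was still called. The Ube2l3 call was lost without Mild IOP replicate 1 or 2 or Moderate IOP replicate 1 (FDR up to 0.141), and that of Park7 without any one of Mild IOP replicates 1 and 2 and the Moderate IOP replicates (FDR up to 0.125).

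Core autophagy was represented by 30 genes, of which 3 were higher, 2 were lower and 25 were not called in Moderate IOP against Mild IOP, with a median of −0.12. The shares over all genes were 7.03% higher and 3.12% lower. Ulk2, a kinase that starts autophagy, was downregulated in Moderate IOP against both groups, with 7.58 ± 0.365, 10.8 ± 1.35 and 3.52 ± 0.646 scaled FPKM in Control, Mild IOP and Moderate IOP. Its Log2 fold-change was −1.38 against Mild IOP (FDR = 0.00614), called in every alternative run, and −0.93 against Control (FDR = 0.0602), where the call was lost without any one Control replicate, Mild IOP replicate 1 or Moderate IOP replicate 2 (FDR up to 0.176), with the replicate block (FDR = 0.123) and with the variance of the compared groups only (FDR = 0.162). Map1lc3a, Gabarapl2 and Gabarap, which encode the ubiquitin-like proteins that coat the autophagosome, were higher by 0.54 (FDR = 0.0232), 0.59 (FDR = 0.0541) and 0.56 (FDR = 0.0805). With the length trend removed they differed by 0.06, 0.40 and 0.21 and none of them was called (FDR = 0.816, 0.173 and 0.511). Gabarapl2 and Gabarap were also not called without either of Mild IOP replicates 1 and 2 or any one Moderate IOP replicate (FDR up to 0.17 and 0.234), nor was Gabarap without Control replicate 2 or with the replicate block (FDR = 0.105). Uvrag, a subunit of a phosphatidylinositol kinase complex named here after its value was seen, differed by −0.71 (FDR = 0.0967), with a call that was lost with the length trend removed (FDR = 0.246) and in 7 of 9 fits without 1 library (FDR up to 0.239).

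Called genes were also found among autophagy receptors and TBK1 adaptors and among genes of inherited optic neuropathy and glaucoma. Of 13 tested autophagy receptors and TBK1 adaptors, Rab12, a small GTPase of membrane traffic, was higher in Moderate IOP than in Control (34.7 ± 2.32 against 52.8 ± 4.47 scaled FPKM, Log2 fold-change 0.59, FDR = 0.0994), a call kept in 2 of 9 fits without 1 library and in 5 of 12 other alternatives (FDR = 0.158 with the replicate block). Of 20 tested genes of inherited optic neuropathy and glaucoma, 2 were higher and 1 lower in Moderate IOP against Mild IOP. Over all genes, 7.03% were called higher and 3.12% lower in that comparison. In Moderate IOP against Control, 1 of the 13 and 1 of the 20 were called, beside 1.84% of all genes. Wfs1, the Wolfram syndrome gene of the endoplasmic reticulum, had 40.3 ± 6.91, 35.3 ± 2.57 and 64.1 ± 10.3 scaled FPKM in the 3 groups (0.83, FDR = 0.0184), called in every alternative run. Tmco1, an endoplasmic reticulum calcium channel gene, was higher by 0.68 (FDR = 0.0459), lost with the length trend removed (FDR = 0.19) and without Mild IOP replicate 1 or 2 or Moderate IOP replicate 2 (FDR up to 0.179). Efemp1, which encodes an extracellular matrix protein, was lower in Moderate IOP than in Mild IOP (Log2 fold-change −0.63, FDR = 0.0334) and than in Control (−0.67, FDR = 0.0718). The first of these calls was lost without Mild IOP replicate 2 (FDR = 0.129), and the second was kept in 3 of 9 fits without 1 library and had an FDR of 0.103 with the replicate block.

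No gene was called in any comparison among 12 tested fission partners, 7 fusion partners, 13 inner membrane proteases and prohibitins, 8 mitophagy receptors, 14 genes of mitochondrial transport and 14 of mitochondrial biogenesis, and 6, 7 and 5 of these 68 distinct genes (8.82%, 10.3% and 7.35%) had an unadjusted p below 0.05 by limma in Mild IOP against Control, Moderate IOP against Control and Moderate IOP against Mild IOP, beside 10.2%, 15.3% and 21.8% of all genes. The biogenesis genes had a median Log2 fold-change of −0.34 in Moderate IOP against Mild IOP, with 12 of 14 below 0, and −0.23 with 11 below 0 when the length trend was removed. The median over all genes was −0.02. Other lists also leaned to 1 side, such as mitochondrial transport with 11 of 14 above 0 in Moderate IOP against Control. No list was tested as a set. The gene with the lowest unadjusted p by limma in each of these lists was Mul1 (0.57 in Moderate IOP against Mild IOP, FDR = 0.145), Bax (−0.59 in Moderate IOP against Control, FDR = 0.138), Clpp (−0.48 in Mild IOP against Control, FDR = 0.223), Fundc1 (0.38 in Moderate IOP against Control, FDR = 0.402), Rhot1 (0.52 in Mild IOP against Control, FDR = 0.24) and Pprc1 (−0.91 in Moderate IOP against Control, FDR = 0.223). With the length trend removed, Bax, whose product permeabilizes the outer membrane, was called in Moderate IOP against Control (−0.77, FDR = 0.0494), and so was Clpp, a subunit of a matrix protease.

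**Figure D5:**
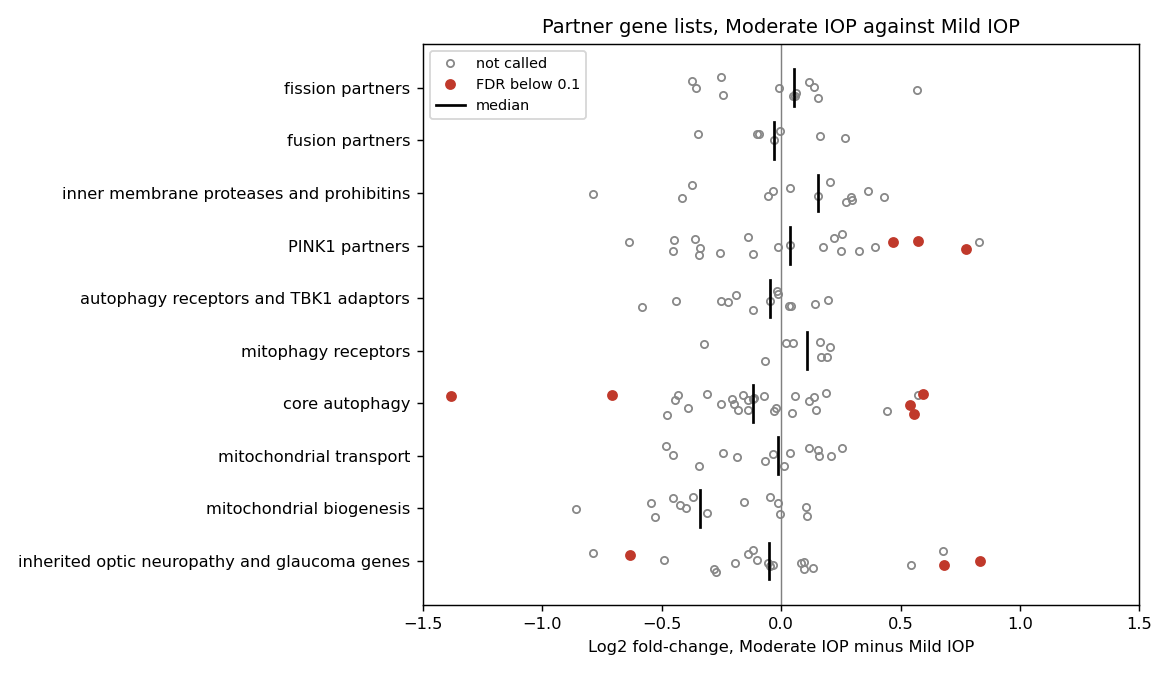
Log2 fold-changes in Moderate IOP against Mild IOP (x axis) of the tested genes of 10 partner lists (rows), red where the FDR was below 0.1, with a black line at the median of each list. The 11 distinct red genes include 8 higher and 3 lower in Moderate IOP, and the median of the biogenesis list is −0.34.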

How the data were processed

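RNA sequencing libraries (SMART-seq v4 cDNA from polyadenylated RNA, Nextera XT, paired ends) were made from 3 pools of purified RGCs, with 3 technical replicates per pool. Reads were mapped to mm10, and FPKM per gene locus were estimated by the authors with cufflinks for each library, each with a confidence interval and a status mark. The submitters' processing notes name TopHat2, FastQC and Trimmomatic, whereas the methods name bowtie2 as the aligner. The deposited FPKM of loci sharing a symbol were summed (24487 loci, 23997 symbols) and divided by median-of-ratios factors of 0.983 to 1.06. The cDNA was primed with oligo-dT and fragmented, and whether these steps or RNA quality made FPKM depend on transcript length was not tested. The methods set a lower limit of RNA integrity for the samples, and RNA quality was not measured again here. A single gene held 20.5% of the summed FPKM in Mild IOP replicate 2 and 9.14% in Moderate IOP replicate 3. Library totals were not used here, and the fragments behind each value were derived as (2 × FPKM / (upper bound − FPKM)) squared, which is approximate.

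Genes with a mean of at least 0.5 and no failed estimate (2 symbols failed) entered a limma fit (version 3.58.1, R 4.3.3) of log2(scaled FPKM + 1) on group over the 9 libraries, moderated by empirical Bayes with a variance trend. Calls used the study's FDR of 0.1, adjusted over all 13043 genes. The fit was tested on simulated independent normal values, which held no trend with transcript length and no failed estimate. Transcript lengths came from GENCODE M21 (95.1% of tested genes) and promoters from RefSeq. Python 3.11.15, numpy 2.4.6, pandas 2.3.3 and matplotlib 3.10.9 were used for the remaining steps. All 9 members were described, 1 further gene of the set is not reported here, and up to 4 called genes per list and comparison were named by lowest p, or the gene with the lowest p where a list had none. Members and lists were chosen with earlier results of these data known. Alternatives covered scaling, pseudocount, filter, variance, failed estimates, loci, a replicate block, transcript length and fits without 1 library. Pathway scores, quantitative PCR and the authors' cuffdiff tests were not analysed here.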

Additional observations from a re-analysis of the deposited data

How the results depend on the processing

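The 47 results for single genes had 980 values over the alternative fits, with many values from the same fit. Of these values, 858 kept the direction and the side of the FDR threshold, 89 lost a call, 6 gained one and 27 turned in sign. The number of genes called in Mild IOP against Control was 52, and became 24 without a filter, 85 with a minimum mean of 5, 11 with the variance of the compared groups only, 15 without the variance trend and 22 with the length trend removed. In Moderate IOP against Control 240 genes were called, 134 and 144 with these variance settings in turn, and 331 with the length trend removed. In Moderate IOP against Mild IOP 1324 were called, 839 without the variance trend and 517 with the length trend removed. Of the members, 1 was called in Moderate IOP against Control without scaling, with upper-quartile scaling, with a minimum mean of 5 and with the length trend removed, where the main count was 0. In Moderate IOP against Mild IOP the main count of 2 became 1 without scaling, without a filter and with the length trend removed, and 0 without the variance trend. The cause was not tested.

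With the replicate number as a block, 25, 135 and 1120 genes were called in Mild IOP against Control, Moderate IOP against Control and Moderate IOP against Mild IOP, and 0, 0 and 1 members. Deviations from group means of libraries with the same number correlated at −0.00507 to 0.0443 (median 0.0115). Those with different numbers correlated at −0.0507 to 0.0418 (median −0.00934). Whether libraries with the same number shared a preparation or sequencing batch was not tested.

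Differences that turned in sign were mostly uncalled and near 0, with the called Fis1 and Park7 as exceptions. In Mild IOP against Control they were Opa3 (0.001868 with upper-quartile scaling), Optn (0.02082 without scaling and 0.02523 with upper-quartile scaling) and Tbk1 (0.04335 and 0.04795). With the length trend removed, Moderate IOP against Mild IOP became 0.04517 for Mfn1, 0.09937 for Dnm1l, −0.0692 for Fis1 and −0.01889 for Park7.

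Leaving out 1 library at a time gave 15 to 183 genes called in Mild IOP against Control, 61 to 287 in Moderate IOP against Control (0 to 1 members) and 519 to 1399 in Moderate IOP against Mild IOP (0 to 2 members). Differences whose sign turned ranged, in Mild IOP against Control, from −0.1716 to 0.04351 for Opa3, −0.5095 to 0.0736 for Mfn2, −0.06523 to 0.09908 for Pink1, −0.1245 to 0.1223 for Optn and −0.08297 to 0.05792 for Tbk1. In Moderate IOP against Control they ranged from −0.5314 to 0.04872 for Opa1, −0.5324 to 0.8496 for Mfn2 and −0.1103 to 0.07868 for Fis1. In Moderate IOP against Mild IOP they ranged from −0.2961 to 1.087 for Mfn2 and −0.0797 to 0.0283 for Dnm1l. Of the called members, Pink1 ranged from −0.5195 to −0.4512 and Fis1 from 0.3766 to 0.602. Mfn1 rested on the fewest fragments, 124 to 245 per library.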
